A study of Mus musculus with 8 samples.

Results

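The endoplasmic reticulum (ER) chaperone and unfolded protein response genes described here are *Hspa5*, *Hsp90b1*, *Calr*, *Pdia4*, *Pdia6*, *Dnajb9*, *Herpud1*, *Sdf2l1*, *Xbp1* and *Creld2*. All probes that the deposited annotation names with 1 of these 10 symbols were taken, which gave 10 of the 30789 symbols and 14 of the 45281 probes on the array, with 1 probe for 6 genes and 2 probes for 4 genes. The cells were peritoneal macrophages of C57/BL6 mice aged 8 weeks, drawn into the peritoneal cavity by thioglycollate broth. They were loaded for 24 h with 120 μg per ml acetylated low density lipoprotein (Ac-LDL), a chemically modified lipoprotein that macrophages take up through scavenger receptors, or were mock treated. Each group held 4 samples labelled as biological replicates 1 to 4, each on 1 array, with replicates 1 and 2 of both groups on slide 1 and replicates 3 and 4 of both on slide 2. The labels do not say whether replicates came from separate animals, so the p values measure the spread between these samples.

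When unfolded proteins accumulate in the ER lumen, 3 sensors in its membrane (ATF6, IRE1 and PERK) start the unfolded protein response. ATF6 is cut in the Golgi to release a transcription factor, and IRE1, the product of *Ern1*, splices *Xbp1* mRNA so that it encodes another. Both factors raise the transcription of ER chaperones, folding enzymes and genes of ER-associated degradation, in which misfolded proteins are sent to the cytosol for destruction, whereas PERK slows translation and raises ATF4. Free cholesterol that enters the ER membrane of macrophages is a known trigger of this response. To raise free cholesterol, the paper's apoptosis assay combined Ac-LDL with an acetyltransferase (ACAT) inhibitor, whereas its array methods name Ac-LDL alone. The genes are ordered below by role, as chaperones, as disulfide isomerases and other folding factors, and as degradation genes and the transcription factor *Xbp1*.

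Promoter sites are shown first because these genes were picked as dependent on ATF6 and XBP1, so that the motifs describe the choice and are no separate finding. ATF6 acts on the ER stress response element (ERSE), searched here on both strands as CCAAT and CCACG with 9 bases of any kind between them, and on ERSE-II, searched on both strands as ATTGG and CCACG with 1 base between them. RefSeq windows of build GRCm38.p6, from 250 bases before to 50 bases after the annotated start, were found for all 10 genes. The ERSE letters were present in the windows of 5 of the 10 genes, against 0.137% of the 27025 genes with a window, and ERSE-II in 1 of 10 against 0.0444%. The XBP1 motif TGACGTGG, on either strand, was in the window of 0 of the 10 genes and of 0.714% of all genes. *Pdia4*, *Dnajb9*, *Sdf2l1* and *Xbp1* held none of these exact letters in this window. In the sequences that follow, each is written 5′ to 3′ in the direction of the motif, with the motif in capitals and 5 flanking bases on either side, and the 2 *Hsp90b1* sequences come from 1 promoter.
*Hspa5* at chr2:34772020-34772048, plus strand: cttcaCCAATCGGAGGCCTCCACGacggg
*Hsp90b1*, far site, at chr10:86705633-86705661, minus strand: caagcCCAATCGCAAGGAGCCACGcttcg
*Hsp90b1*, near site, at chr10:86705528-86705556, plus strand: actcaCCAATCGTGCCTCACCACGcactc
*Calr* at chr8:84847070-84847098, plus strand: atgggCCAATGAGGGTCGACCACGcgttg
*Pdia6* at chr12:17266486-17266514, plus strand: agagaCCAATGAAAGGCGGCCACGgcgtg
*Creld2* at chr15:88819515-88819543, minus strand: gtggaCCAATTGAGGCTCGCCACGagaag
*Herpud1*, ERSE-II, at chr8:94386372-94386392, plus strand: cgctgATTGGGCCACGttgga
The motif nearest to a start began 65 bases before that of *Hspa5* among the ERSE sites, and the farthest began 212 bases before that of *Hsp90b1*. A match to these letters is a description of the sequence, and binding was not measured.

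Gene expression was measured on an Illumina mouse bead array, where each probe sits on many beads whose intensities are averaged. The deposited intensities were background corrected, normalized between arrays and are given on the log2 scale, so that a difference of 1 is a doubling of intensity. The share of probes detected (detection p of at most 0.05 against the negative controls) ran from 36.8% to 38.5% over the arrays. Detection on 4 or more arrays was required for testing, which left 17122 probes and 12423 gene symbols. That set held 13 of the 14 probes of the ER genes, with at least 1 probe for each of the 10 genes. The probe left out, a second *Calr* probe, was detected on 0 of the 8 arrays. A gene with several tested probes is given by the one with the highest mean. Of the macrophage markers, 9 of 10 were detected on all 8 arrays and *Msr1* on none, with a called difference for *Mertk* with the replicate block alone (0.56, adjusted p = 0.0364, against 0.817 without a block). As a check that loading acted, the lipase inhibitor gene *Angptl4* was higher in all 4 pairs (log2 difference 1.48, limma adjusted p = 0.0484, and 0.000679 with the replicate block). Its call without a block was lost with no filter, with the methods' t-test and without control replicate 4 or Ac-LDL replicates 1, 2 or 3, where 0 probes of any gene were called. *Sqle*, of sterol synthesis, was lower in all 4 pairs (-1.41) with a limma adjusted p of 0.0528, and of 0.0189 with the replicate block.

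None of the 10 ER genes was called with Ac-LDL. By limma's moderated test with Benjamini-Hochberg adjustment over all tested probes, 0 of 10 genes had an adjusted p under 0.05, where 0.0409% of all tested probes did (0.00584% higher and 0.035% lower), and the lowest adjusted p of a gene was 0.653, for *Pdia4*. Blocking on the replicate number left the count at 0 (0.444% of all probes called), as did blocking on the slide (0.321%). At an unadjusted p under 0.05, 3 of 10 genes were found without a block, namely *Calr*, *Pdia4* and *Sdf2l1*, all higher, where 5.2% of all probes were found and 2.73% were higher. With the replicate block 5 of 10 were found, these 3 and *Creld2* higher and *Dnajb9* lower, against 13.8% of all probes, 7.31% higher and 6.54% lower. With the slide block 4 of 10 were found, against 12.1% of all probes. The 10 genes had a median log2 difference of 0.10, beside -0.0006 over all tested genes, and 7 of them were higher with Ac-LDL beside 49.8% of all tested genes. This median depended on the scaling and on single arrays, as it was -0.012 with median scaling of the arrays (where the median of all tested probes was -0.09). It ran from 0.028 without control replicate 2 to 0.184 without control replicate 4, and was 0.043 without control replicate 1. The 95% interval of each of the 10 genes lay within 2-fold of normalized intensity in both directions. Taken over the 10 genes, those intervals ran from a fold of 0.621 at the lowest, for *Hspa5*, to 1.71 at the highest, for *Calr*. The *Hspa5* probe was dim, with deposited intensities of 46.2 to 77.7, where the array medians over all probes were 42.5 to 46.4. Its difference went from -0.17 to -0.078 with an offset of 50, so that its interval limits the intensity and not the mRNA.

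**Figure D1:**
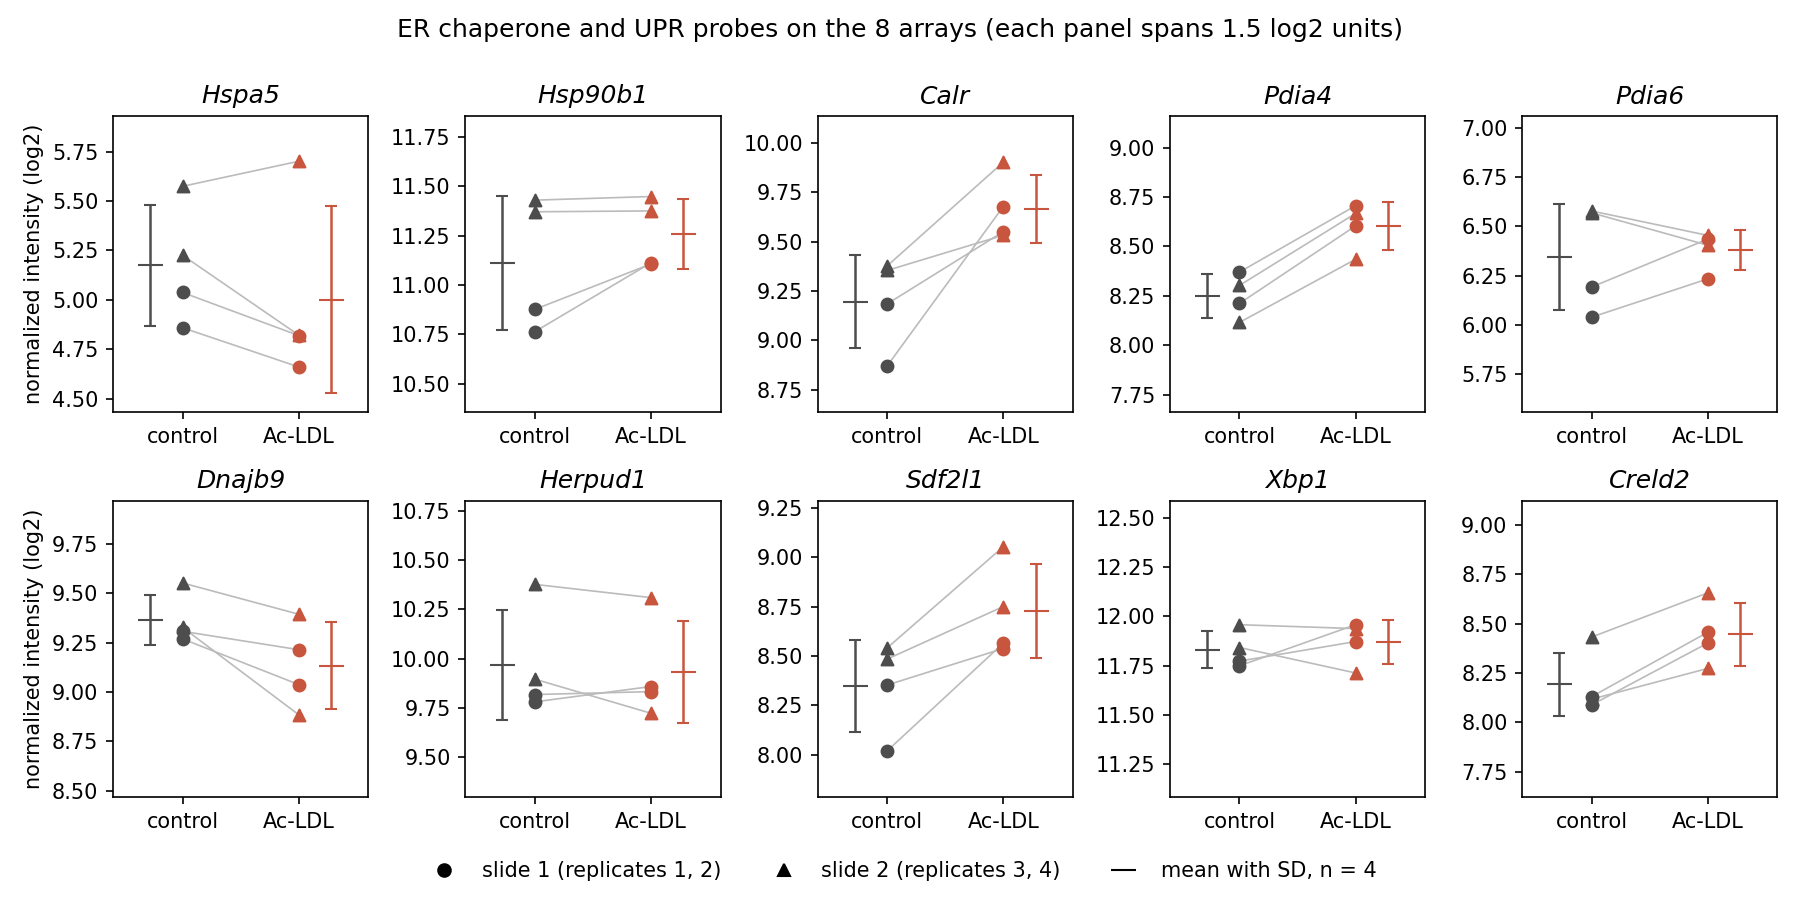
Normalized log2 intensity of the brightest tested probe of each of the 10 ER genes on the 4 control and 4 Ac-LDL arrays, with circles for slide 1, triangles for slide 2, grey lines joining arrays of the same replicate number, and bars for the mean with SD (n = 4). The groups do not overlap for *Calr* and *Pdia4* and overlap for the other 8 genes.

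Among the chaperones of the ER lumen, *Calr* had the largest difference. *Calr* encodes calreticulin, a lectin chaperone that binds calcium and newly made glycoproteins. Its normalized log2 intensity was 8.87, 9.18, 9.38 and 9.35 on control arrays 1 to 4 and 9.68, 9.55, 9.90 and 9.53 on Ac-LDL arrays 1 to 4. Every Ac-LDL array was therefore above every control array (two-sided exact permutation p = 0.0286, the smallest p that 4 arrays against 4 allow). These permutations kept neither the replicate numbers nor the slides together. Groups that did not overlap were found for 2 of the 10 genes and for 3.8% of all tested probes, and with Ac-LDL the higher group for 2 and 2.11%. The control mean was 9.20 ± 0.23 (SD, n = 4) and the Ac-LDL mean 9.67 ± 0.17 (SD, n = 4), which is a log2 difference of 0.47 (standard error 0.14, 95% interval 0.17 to 0.77) with a limma adjusted p of 0.686, and 0.132 with the replicate block.

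*Hsp90b1* encodes GRP94, the HSP90 of the ER, which folds integrins and Toll-like receptors. Its log2 intensity was 10.88, 10.76, 11.37 and 11.43 on control arrays 1 to 4 and 11.11, 11.11, 11.38 and 11.45 on Ac-LDL arrays 1 to 4. The pair differences were 0.23 and 0.35 on slide 1 and 0.0044 and 0.018 on slide 2, so that the arrays separated more by slide than by treatment. The log2 difference between the groups was 0.15 (standard error 0.17, 95% interval -0.22 to 0.52, limma adjusted p = 0.986). It was 0.035 without control replicate 2, 0.257 without control replicate 4 and 0.022 with median scaling.

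*Hspa5* encodes BiP, the HSP70 of the ER, which holds the 3 sensors inactive until it is drawn off by unfolded proteins. Its only probe was dim, with deposited intensities of 46.2 to 77.7, and was detected on 7 of the 8 arrays. The log2 intensity was 4.86, 5.04, 5.23 and 5.58 on control arrays 1 to 4 and 4.66, 4.82, 4.82 and 5.70 on Ac-LDL arrays 1 to 4. It was lower with Ac-LDL in 3 of 4 pairs, with a log2 difference of -0.17 (standard error 0.23, 95% interval -0.69 to 0.34, limma adjusted p = 0.987). The difference was -0.04 without control replicate 4, -0.06 without Ac-LDL replicate 1, -0.078 with an offset of 50 and -0.41 without Ac-LDL replicate 4. This probe gave the widest interval of the 10 genes.

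Of the folding enzymes and cofactors, *Pdia4* had the most even difference over the pairs. *Pdia4* encodes ERp72, a disulfide isomerase that forms and rearranges disulfide bonds. The log2 intensity was 8.21, 8.37, 8.30 and 8.11 on control arrays 1 to 4 and 8.60, 8.71, 8.67 and 8.44 on Ac-LDL arrays 1 to 4. The Ac-LDL arrays were all above the control arrays (two-sided exact permutation p = 0.0286) and the pair differences ran from 0.32 to 0.39. The log2 difference was 0.35 (standard error 0.10, 95% interval 0.13 to 0.58, limma adjusted p = 0.653, and 0.112 with the replicate block), 27.8% in normalized intensity, which did not pass the test across all probes.

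*Pdia6*, the gene of the disulfide isomerase P5, which also restrains the sensors IRE1 and PERK, showed no common direction. Its only probe has no chromosome or coordinates in the deposited annotation and was of low intensity (deposited values of 88.2 to 130). The log2 intensity was 6.04, 6.19, 6.58 and 6.57 on control arrays 1 to 4 and 6.23, 6.44, 6.45 and 6.40 on Ac-LDL arrays 1 to 4. Both pairs of slide 1 were higher with Ac-LDL and both pairs of slide 2 lower, and the log2 difference over all arrays was 0.04 (standard error 0.14, 95% interval -0.27 to 0.34, limma adjusted p = 0.994), and -0.047 with median scaling (adjusted p = 0.951).

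*Sdf2l1* encodes a cofactor that keeps ER J-proteins and their clients in solution. Its log2 intensity was 8.02, 8.35, 8.54 and 8.49 on control arrays 1 to 4 and 8.57, 8.54, 9.05 and 8.75 on Ac-LDL arrays 1 to 4. Each pair was higher with Ac-LDL, by 0.18 to 0.55, but Ac-LDL array 2 lay just under control array 3, so that the groups overlapped (two-sided exact permutation p = 0.0571). The log2 difference was 0.38 (standard error 0.15, 95% interval 0.04 to 0.71, limma adjusted p = 0.887, and 0.144 with the replicate block).

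*Creld2* encodes a disulfide isomerase with EGF-like domains that is secreted in part during ER stress. The brighter probe was at 8.09, 8.13, 8.12 and 8.43 on control arrays 1 to 4 and at 8.40, 8.46, 8.27 and 8.66 on Ac-LDL arrays 1 to 4. All 4 pairs were higher with Ac-LDL, while control array 4 stood above Ac-LDL arrays 1 and 3 (two-sided exact permutation p = 0.0857). The log2 difference was 0.25 (standard error 0.12, 95% interval -0.01 to 0.51, limma adjusted p = 0.946), and 0.17 for the second probe (standard error 0.11, adjusted p = 0.961), which was higher in 4 of 4 pairs as well.

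The probes of *Calr*, *Pdia4*, *Sdf2l1* and *Creld2* are printed because these genes were higher in all 4 pairs with an unadjusted p under 0.05 in the fit with the replicate block, and because the *Creld2* probes share bases. Each is 50 bases long, and no genome build is named in the deposited annotation, which places them at chr8:87368500-87368549 (*Calr*, minus strand), chr6:47746681-47746730 (*Pdia4*, minus strand), chr16:17131693-17131742 (*Sdf2l1*, minus strand) and chr15:88655097-88655146 (*Creld2*, second probe, plus strand). It places the brighter *Creld2* probe in 2 blocks, chr15:88652477-88652509 and chr15:88652916-88652932. Capitals mark the 7 bases with which the second *Creld2* probe ends and the brighter one starts. The deposited transcript positions, with starts at 852 for the second probe and 896 for the brighter one, make these 50-base probes overlap by a few bases. The deposited genome coordinates, in contrast, place the second probe well downstream of the brighter one, and this conflict was not resolved.
*Calr*: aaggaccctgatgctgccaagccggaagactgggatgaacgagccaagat
*Pdia4*: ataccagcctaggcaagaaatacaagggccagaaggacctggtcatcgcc
*Sdf2l1*: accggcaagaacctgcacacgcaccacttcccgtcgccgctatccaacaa
*Creld2*, brighter probe: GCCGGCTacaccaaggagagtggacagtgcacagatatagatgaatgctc
*Creld2*, second probe: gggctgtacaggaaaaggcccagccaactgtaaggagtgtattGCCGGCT

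*Dnajb9* was the gene with the largest difference towards lower values. It encodes ERdj4, a J-protein that is induced by XBP1, helps to deliver misfolded proteins for degradation and brings BiP to IRE1. Its brighter probe was at 9.31, 9.27, 9.33 and 9.55 on control arrays 1 to 4 and at 9.21, 9.04, 8.88 and 9.39 on Ac-LDL arrays 1 to 4. It was lower in all 4 pairs, by 0.09 to 0.44, and Ac-LDL array 4 was above the control arrays 1 to 3. The log2 difference was -0.23 (standard error 0.13, 95% interval -0.51 to 0.05, limma adjusted p = 0.960, and 0.306 with the replicate block). A dimmer second probe, which the deposited coordinates place far from the first (start at 45306951 against 45076423 on chromosome 12, build not named), was lower in 3 of 4 pairs, with a log2 difference of -0.17 (standard error 0.20, adjusted p = 0.987). The deposited transcript starts, at 1748 for the second probe and 1575 for the first, are in contrast near each other. Whether both probes lie in the same transcript was not resolved.

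*Herpud1* encodes HERP, a membrane protein that organizes the ubiquitin ligase complex of ER-associated degradation. The brighter probe was at 9.78, 9.82, 9.90 and 10.38 on control arrays 1 to 4 and at 9.86, 9.83, 9.72 and 10.31 on Ac-LDL arrays 1 to 4. Both arrays of replicate 4 were high and the groups lay over each other, with a log2 difference of -0.04 (standard error 0.17, 95% interval -0.40 to 0.33, limma adjusted p = 0.995). The second probe differed by -0.02 (standard error 0.14, adjusted p = 0.997).

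*Xbp1*, the transcription factor gene downstream of IRE1, was at 11.75, 11.77, 11.84 and 11.96 on control arrays 1 to 4 and at 11.96, 11.87, 11.71 and 11.94 on Ac-LDL arrays 1 to 4. The log2 difference was 0.04 with the smallest standard error of the 10 genes (0.10, 95% interval -0.17 to 0.25, limma adjusted p = 0.993), and -0.096 with median scaling (adjusted p = 0.864). The highest fold that this interval allows is 1.19 upwards. One probe does not tell spliced from unspliced *Xbp1* mRNA, so that the activity of IRE1 was not measured.

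**Figure D2:**
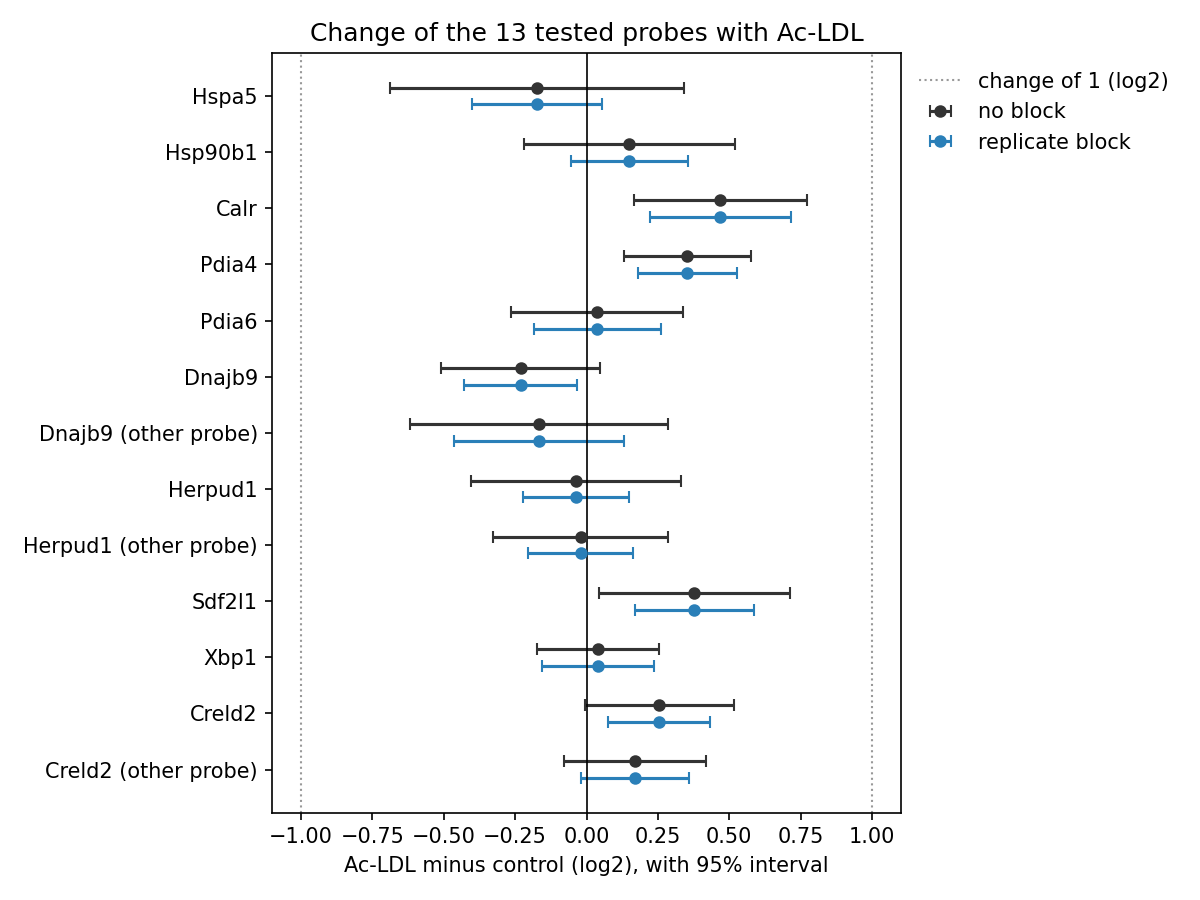
Log2 difference, Ac-LDL minus control, of the 13 tested probes with its 95% interval without a block (black) and when blocked on the replicate number (blue), and dotted lines at a change of 1. All intervals lie inside the dotted lines, and without a block those of *Calr*, *Pdia4* and *Sdf2l1* lie above 0.

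Over the 4 replicate numbers, 5 of the 10 genes (*Calr*, *Sdf2l1*, *Pdia4*, *Creld2* and *Hsp90b1*) were higher with Ac-LDL in every pair, as were 11.5% of all tested probes, and *Dnajb9* alone was lower in every pair, as were 10.3% of all tested probes. None of these genes was called, and the shares are given without a test because the genes are neither independent nor chosen without knowledge of these data.

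The comparison was repeated within each slide for the brightest probe of each gene. On slide 1 the median log2 difference of the 10 genes was 0.25, with 8 of 10 higher with Ac-LDL, and on slide 2 it was -0.03, with 5 of 10 higher. *Calr* (0.59 and 0.35), *Pdia4* (0.36 and 0.34), *Sdf2l1* (0.37 and 0.39), *Creld2* (0.32 and 0.19) and *Hsp90b1* (0.29 and 0.01) were higher with Ac-LDL on slides 1 and 2. *Dnajb9* (-0.16 and -0.30) and *Hspa5* (-0.21 and -0.14) were lower on both. *Pdia6* (0.22 and -0.14), *Xbp1* (0.15 and -0.07) and *Herpud1* (0.05 and -0.12) turned from higher to lower. The test of the difference between the slides, limma's interaction term, called 0 of the 10 genes and 0% of all probes, and 0 of 10 genes had an unadjusted p under 0.05 where 8.38% of all probes did, so that a difference between slides was not shown. Each slide holds 2 arrays of each group, which limits this test.

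**Figure D3:**
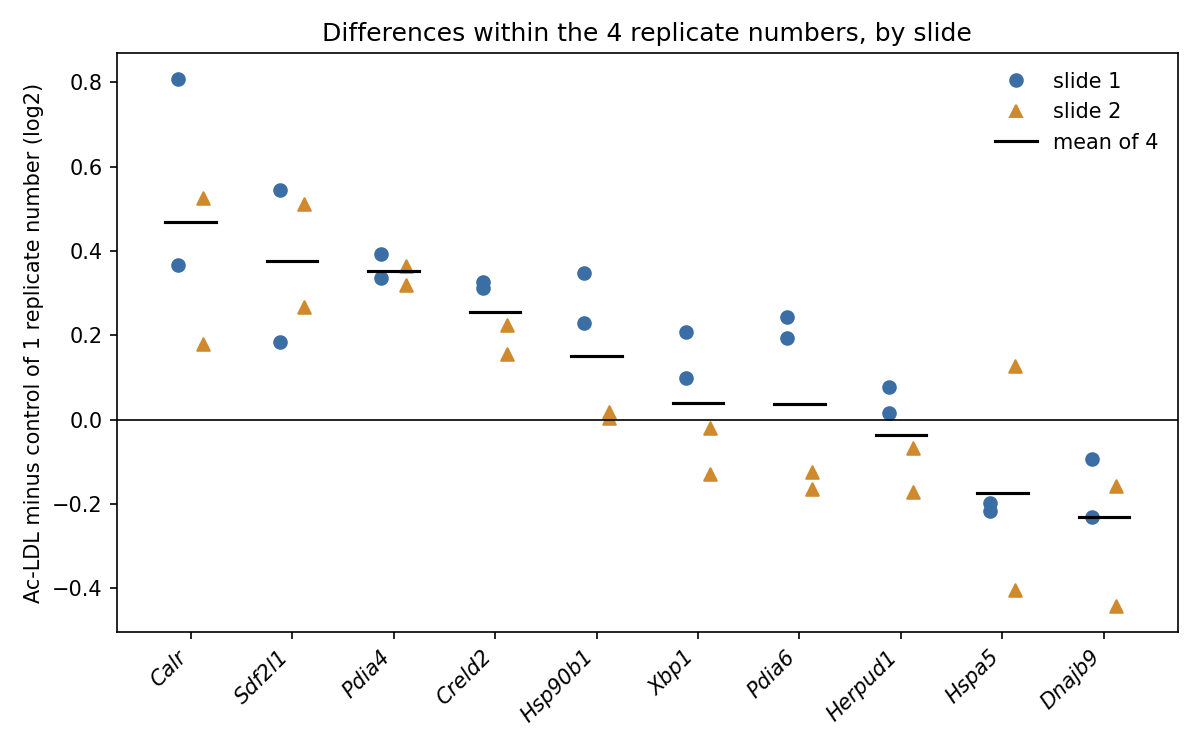
Log2 difference, Ac-LDL minus control, within each replicate number, with circles for slide 1, triangles for slide 2 and a bar for the mean of 4, for the brightest tested probe of the 10 ER genes in order of the mean. The *Pdia4* differences lie between 0.32 and 0.39, and those of *Pdia6*, *Xbp1* and *Herpud1* are above 0 on slide 1 and below 0 on slide 2.

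The slides were also compared with each other. This comparison was added after the values were seen, and it sets replicates 3 and 4 against 1 and 2 with the treatment in the model. The mean was higher on slide 2 for 9 of the 10 genes and for 46.7% of all tested genes. It passed limma's test for 2 of them, *Hsp90b1* (log2 difference 0.44, standard error 0.09, adjusted p = 0.00623) and *Sdf2l1* (0.34, standard error 0.10, adjusted p = 0.0347), where 23.6% of all tested probes passed and 11.7% were higher on slide 2. *Hspa5* differed by 0.49 (standard error 0.17, adjusted p = 0.0607). For 4 of the 10 genes the difference between slides was larger than that between treatments, and its median size was 0.24, beside 0.17 over all tested genes. As both groups lie equally on both slides, the slide does not move the difference between the groups, but it widens the spread within them, and slide and replicate samples cannot be told apart.

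**Figure D4:**
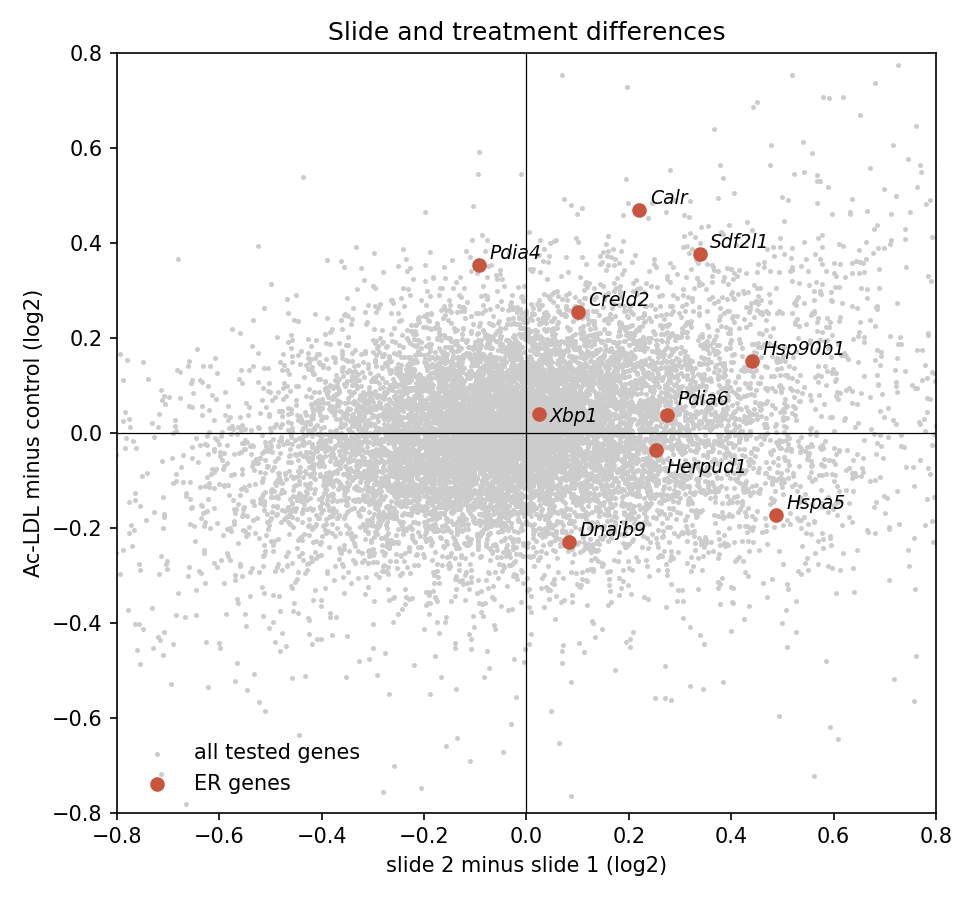
Log2 difference between the slides (horizontal) against that between Ac-LDL and control (vertical) for all tested genes (grey) and the 10 ER genes (red), drawn to 0.8 in each direction, which leaves out 296 genes. *Hspa5* and *Hsp90b1* lie far to the right, *Calr* lies highest and *Xbp1* lies near the centre.

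The 10 genes differed in how they varied over the arrays. After the mean of each slide was taken from its 4 arrays, Pearson's r over the 8 arrays was 0.96 between *Calr* and *Sdf2l1*, 0.95 between *Pdia4* and *Sdf2l1* and 0.92 between *Calr* and *Pdia4*. Among *Hspa5*, *Herpud1* and *Dnajb9*, r was 0.86 between *Hspa5* and *Herpud1* and 0.79 between *Dnajb9* and *Herpud1*. For each of these genes the array farthest from the others was that of replicate 4, on the high side, in both groups. How far the r values among these genes rest on that replicate was not tested. Between genes of these sets r was as low as -0.85 between *Pdia4* and *Dnajb9* and -0.565 between *Hspa5* and *Calr*. Over the 45 gene pairs the median r was 0.37. These values describe arrays that share slides and treatments, and carry no test. The tested genes most like the mean profile of the 10, in r over the 8 arrays after the same centring, were *Zfpn1a1* (0.992), *Aldh3b1* (0.986), *Trappc1* (0.983), *Col18a1* (0.98) and *Aoah* (0.97), and none of these was called (log2 difference 0.14 to 0.43).

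The values of genes with and without the promoter motifs overlapped. The 5 genes with ERSE letters had log2 differences from -0.17 (*Hspa5*) to 0.47 (*Calr*), and *Herpud1*, with ERSE-II, one of -0.04. The 4 genes without either ran from -0.23 (*Dnajb9*) to 0.38 (*Sdf2l1*). Outside the 10 genes, 13 tested genes held either motif, among the 7826 tested genes matched to a promoter window. The Ac-LDL mean was higher for 8 of these and lower for 5, and the median log2 difference was 0.10. By limma 0 were called, and 1, *2810022L02Rik*, had an unadjusted p under 0.05 (-0.29, adjusted p = 0.921), as did 5.2% of all tested probes. Among the 13 were *Dnajb11* (0.16, adjusted p = 0.964), a BiP cochaperone, *Dnajc3a* (0.15, adjusted p = 0.961), *Ero1lb* (0.19, adjusted p = 0.976), an oxidase that recharges disulfide isomerases, and *Syvn1* (0.12, adjusted p = 0.968), the HRD1 ubiquitin ligase.

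Beyond the 10 genes, 6 lists of 117 genes of the ER and of related stress and chaperone systems were examined, of which 95 were tested. By limma 0 of the 95 genes were called without a block, with the replicate block or with the slide block. The list medians and counts below are from the main normalization only. Median scaling, which moved the median of all tested probes to -0.09, was not applied to them or to the genes outside the 10 with a promoter motif. At an unadjusted p under 0.05 without a block, *Pdia3*, *Ssr3* and *Hspa8* (3 genes) were higher and *Atf4*, *Asns*, *Chac1* and *Nupr1* (4 genes) lower, beside 5.2% of all tested probes at this threshold, 2.73% higher.

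Of 21 other ER folding factors tested, 14 were higher and 0 called, with a median log2 difference of 0.10. The largest value was that of *Pdia3* (0.25, standard error 0.09, higher in 4 of 4 pairs, adjusted p = 0.854), the isomerase ERp57 that works with calreticulin, and the lowest that of *Fkbp7* (-0.25, adjusted p = 0.969), a prolyl isomerase. Genes of ER translocation and N-glycosylation had a median of 0.09, with 16 of 21 higher and 0 called, from *Sec11c* (-0.19, adjusted p = 0.986), of the signal peptidase, to *Ssr3* (0.22, adjusted p = 0.917), of the translocon-associated complex. Genes of ER-associated degradation lay closer to 0. Their median was 0.03, with 11 of 19 higher and 0 called, from *Ube2j1* (-0.09, adjusted p = 0.989), a ubiquitin-conjugating enzyme, to *Erlec1* (0.19, adjusted p = 0.961), a lectin.

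The sensors and their transcription factors had a median of -0.08, with 4 of 10 tested genes higher and 0 called. *Atf6* differed by 0.08 (adjusted p = 0.990) and *Ern1* by -0.24 (lower in 4 of 4 pairs, adjusted p = 0.961). *Nfe2l2*, a factor that PERK can activate, had the highest value (0.12, adjusted p = 0.987). The lowest was that of *Ddit3*, which encodes the death-associated factor CHOP. The control mean of *Ddit3* was 9.67 ± 1.68 (SD, n = 4) and its Ac-LDL mean 8.95 ± 0.69 (SD, n = 4), a log2 difference of -0.72 (standard error 0.71, adjusted p = 0.984), with 2 pairs higher and 2 lower.

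Targets of PERK and ATF4 had the lowest median of the 6 lists, at -0.24, with 7 of 8 tested genes lower, 6 of them in all 4 pairs (10.3% of all tested probes were), and 0 called. *Trib3*, a pseudokinase induced by ATF4 and CHOP, had a control mean of 8.80 ± 0.84 (SD, n = 4) and an Ac-LDL mean of 8.02 ± 0.34 (SD, n = 4). The log2 difference was -0.78 (standard error 0.36, limma adjusted p = 0.946, and 0.119 with the replicate block). *Sesn2*, of the antioxidant sestrins, was the gene of this list with a higher mean (0.10, adjusted p = 0.989). Cytosolic and mitochondrial chaperones had a median of -0.03, with 7 of 16 higher and 0 called, from *Hspa9* (-0.28, adjusted p = 0.961), the HSP70 of mitochondria, to *Hspa8* (0.21, adjusted p = 0.912), the constitutive HSP70 of the cytosol.

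**Figure D5:**
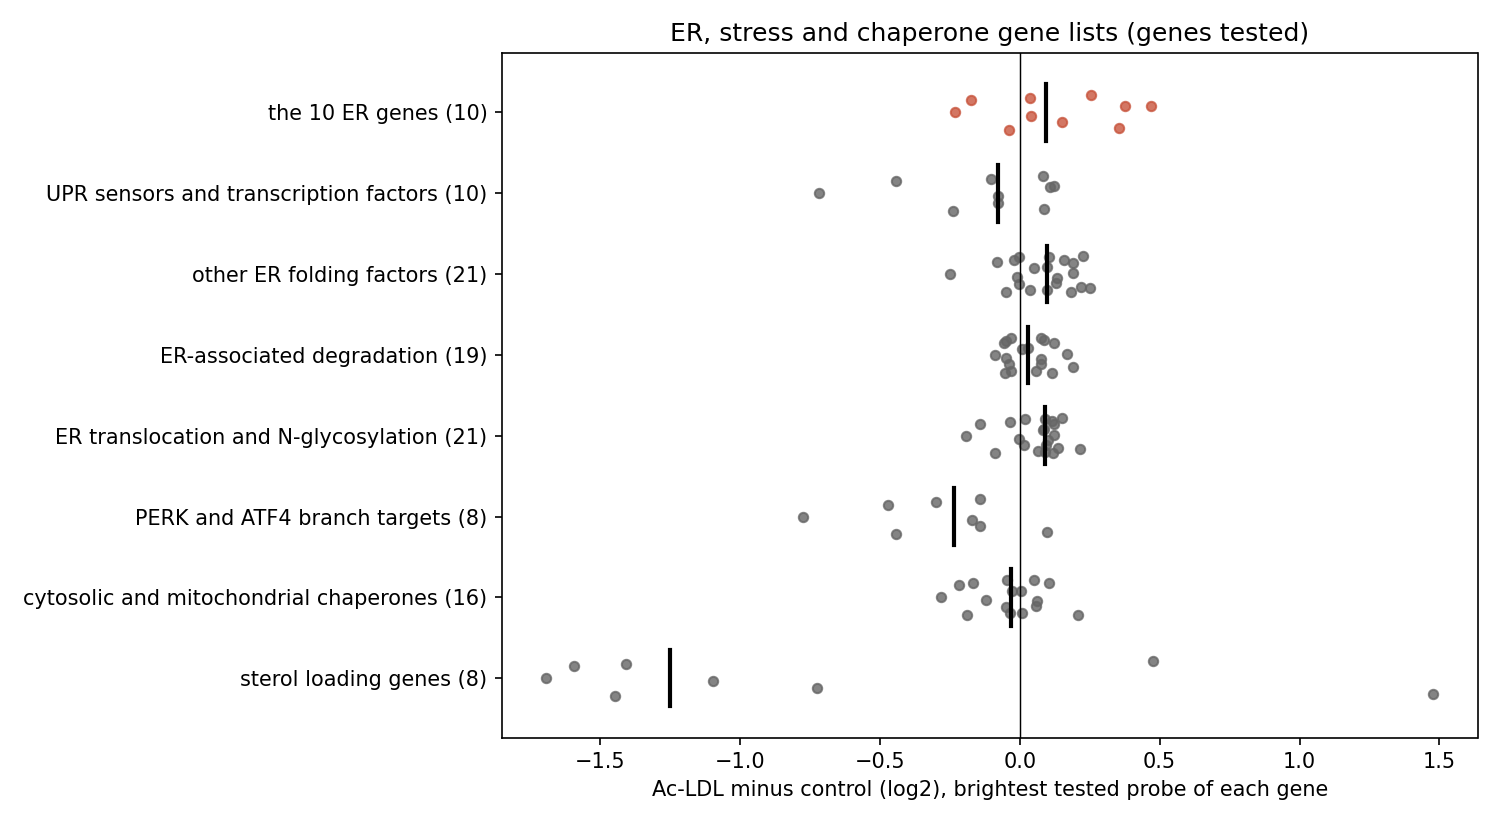
Log2 difference, Ac-LDL minus control, of the brightest tested probe of each gene (points) in the 10 ER genes (red), the 6 related lists and a list of sterol loading genes, with a bar at each median and the number of genes tested in brackets. The ER gene medians lie between -0.24 and 0.10, and the sterol loading genes reach -1.69 and 1.48.

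Because the samples are bulk cultures, a lower share of a cell type and less RNA per cell cannot be told apart. The summed linear intensity of the 10 macrophage markers was 36516 to 46459 on control and 38100 to 45054 on Ac-LDL arrays, led by *Lyz2*. That sum had a mean of 38299 on slide 1 and 44875 on slide 2. Single macrophage markers did not move together, with 6 of 9 tested higher with Ac-LDL and 3 lower. They ran from *Cd14* (log2 difference -0.48, limma adjusted p = 0.960) to *Fcgr1* (0.61, adjusted p = 0.942). For B and plasma cells, secretory cells rich in ER chaperones, 4 of 11 markers on the array were detected on at least 4 arrays, *Cd79b*, *Pax5*, *Igj*, *Tnfrsf17* and *Pou2af1* were detected on none, and the sum was 774 to 1137 against 813 to 964, with *Blnk* the brightest. For fibroblasts and mesothelium 10 of 11 markers were detected, led by *Dcn*, and the sum was 18593 to 25996 against 20433 to 25017. The mean of this sum was 24917 on slide 1 and 21262 on slide 2. The neutrophil sum was 761 to 796 on control and 867 to 921 on Ac-LDL arrays, without overlap, with 3 of 9 markers detected, led by *S100a8*, and *S100a9*, *Camp*, *Ngp*, *Mmp8* and *Mpo* detected on none. Only *S100a8* was bright, with log2 means of 9.20 on control and 9.44 on Ac-LDL arrays (limma adjusted p = 0.845). *Ltf* (4.67 and 4.87) and *Csf3r* (5.22 and 5.51) were dim, so that this sum rests largely on 1 probe. Of all tested probes, 3.8% did not overlap between the groups. Eosinophil and mast cell markers (1 of 10 detected, *Il5ra*) summed to 208 to 223 against 206 to 219.9, and T and NK cell markers (1 of 9, *Lck*) to 195 to 222 against 195 to 217. The part of these cells in the values of *Calr*, *Pdia4*, *Sdf2l1* and *Creld2* was not tested.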

How the data were processed

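Per the labels, total RNA was the molecule and biotin the label, whereas the study's methods name purified mRNA, hybridized to Illumina Mouse WG-6 beadchips. As deposited, the signal is the mean bead intensity on the linear scale, neither background-subtracted nor normalized, and the authors deposited beside it a detection p-value, the bead standard error and the bead number. BeadStudio is named in the submitters' processing notes. A genome build of the probes is not given in the sources used here.

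Signals were corrected with normexp (negative controls inferred from the detection p-values, offset 16), quantile normalized and log2 transformed with limma 3.58.1 (neqc) in R 4.3.3. Probes with a detection p of at most 0.05 on at least 4 of 8 arrays were tested by a linear model of 2 groups, as the study's test was unpaired, and called at a Benjamini-Hochberg adjusted p under 0.05. Exact permutation tests used all 70 assignments of the 8 arrays, also those that break the replicate numbers and the slides. The 13 tested probes rested on 30 to 70 beads per array, with a bead standard error of 1.98% to 7.71% of the signal, and the number of arrays limits the precision. The procedure was tested on simulated data.

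The ER genes and all lists were chosen with earlier results of these data known. Named were all 10 genes, the list genes called in any of the 3 fits and the highest and lowest of each list, *Sqle* and *Angptl4* of the sterol loading genes, the 5 genes of most similar profile, and the brightest detected marker of each cell type. Some results of that list are not reported here. Other genes named, such as *Atf4*, *Atf6*, *Ern1* and *Mertk*, the probe *Msr1* and genes with a promoter motif, were picked after their values were seen. Promoter windows came from RefSeq (GRCm38.p6). 7826 of the 12423 tested symbols matched a window by gene identifier or symbol.

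Across all tested probes, the deviations of control and Ac-LDL arrays of the same replicate number from their group means correlated within each number. The r values were 0.579, 0.479, 0.468 and 0.629, across probes, which are not independent. Arrays of the same number always share a slide, so that these values cannot tell a pairing by number from a shared slide. The replicate number and the slide were used as blocks, and background correction, offset, normalization, filter, prior, test, probe choice and left-out arrays were varied.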

Additional observations from a re-analysis of the deposited data

Results flagged for a closer look

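Far from the other arrays of its group lay the *Hspa5* probe on Ac-LDL array 4 (5.70 on the log2 scale, the others at 4.66 to 4.82) and the brighter *Creld2* probe on control array 4 (8.43, the others at 8.09 to 8.13). These were 2 of 26 groups of 4 arrays examined, and about 1 in 20 is flagged by chance. Without Ac-LDL replicate 4 the *Hspa5* difference was -0.41, and without control replicate 4 the *Creld2* difference was 0.34, and neither was called.

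For the probes of *Pdia6* and *Xbp1* and the brighter probe of *Herpud1*, both pairs of slide 1 were higher and both pairs of slide 2 lower with Ac-LDL. The difference on slide 2 minus that on slide 1 was -0.36 for *Pdia6* (limma interaction, adjusted p = 0.598), -0.17 for *Herpud1* (adjusted p = 0.906) and -0.23 for *Xbp1* (adjusted p = 0.743), so that a difference between the slides was not shown for any of these genes.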

How the results depend on the processing

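None of the 10 genes was called under any of the 24 alternatives, and the lowest adjusted p of a gene over all of them was 0.112 (*Pdia4*, replicate block). The fit with the replicate number as a block, which pairs the samples by number, gave 0 called genes of the 10 and 0 of the 95 related genes. It changed no call of these genes, and the slide block gave 0 and 0. With each slide normalized on its own, the interaction called 0 of the 10 genes. Over all probes, 7 were called without a block, 76 with the replicate block, 55 with the slide block, 26 with median scaling, 16 with the trend and robust prior, 14 and 16 within slides 1 and 2, and 0 with no filter or the methods' t-test. With arrays left out the count ran from 0 to 15 (15 without control replicate 2). The median difference of the 10 genes was 0.25 on slide 1 alone; the cause was not tested.

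Of 239 values of single genes under the alternatives, 226 kept their direction. The 13 that turned were of *Pdia6*, *Xbp1* and *Herpud1*. Median scaling gave -0.047 for *Pdia6* and -0.096 for *Xbp1*, and moved the median of all probes to -0.09. Slide 2 alone gave -0.14 for *Pdia6* and -0.074 for *Xbp1*, and slide 1 alone 0.046 for *Herpud1*. With arrays left out, the values ran from -0.064 to 0.115 for *Pdia6*, from -0.016 to 0.096 for *Xbp1* and from -0.163 to 0.099 for *Herpud1*. The cause was not tested. The dim *Hspa5* probe was not tested where detection on all 8 arrays was required.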
